A study of Rattus norvegicus with 30 samples.

Results

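The genes described here encode the subunits of the proteasome, the protease that degrades ubiquitin-tagged proteins, and they were chosen by symbol: 31 subunits of the constitutive particle and the 3 catalytic subunits of its immune form, Psmb8, Psmb9 and Psmb10. Of these 34 genes, 33 had a probe set of their own on the array, among 14217 genes that did. The missing gene is Psmb6, whose probe set is shared with another gene and is not named here. The 33 genes, 30 constitutive and 3 of the immunoproteasome, were read by 43 probe sets, of which 42 passed the filter on dim probe sets, and every one of the 33 genes kept at least 1.

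Heart tissue of male Crl:WI(Han) rats was profiled after 1 dose of isoproterenol hydrochloride, a synthetic agonist of beta-adrenergic receptors, or of vehicle. Isoproterenol hearts were sampled at 1 h (5 arrays), 3 h (4 arrays), 24 h (4 arrays) and 72 h (5 arrays), and vehicle hearts at the same 4 times (3 arrays each). The dose is labelled 0.5, with a unit that the labels and the design text give differently, and the last time is 72 h in the labels and 48 h in the design text. No genetic change is labelled in any group, and the titles call the arrays biological replicates without saying whether each held its own animal, so p-values measure the spread between these samples.

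Array medians of the deposited intensity lay between 21.2 and 70.4, and the intensities give no counting depth, so the number of arrays limits the precision. Chip numbers ran from 33 to 62 for isoproterenol and from 4 to 21 for vehicle arrays, so the effect of treatment and that of chip series cannot be told apart. The label of heart tissue was checked against 12 cardiomyocyte genes: 11 were measured, and their summed normalized intensity lay between 77000 and 95700 in isoproterenol hearts of 72 h, against 93400 to 94300 in vehicle hearts of 72 h. The arrays read whole tissue, in which fewer cells of a type and less RNA per cell cannot be told apart.

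The proteasome is a barrel, the 20S core, closed by 19S caps. The core stacks rings of alpha subunits (Psma genes), which gate the entrance, and beta subunits (Psmb genes), of which Psmb5, Psmb6 and Psmb7 carry the protease sites. The cap unfolds its substrates with ATPases (Psmc genes) and holds ubiquitin receptors, scaffolds and a deubiquitinase (Psmd genes). Interferons induce Psmb8, Psmb9 and Psmb10, which take the places of Psmb5, Psmb6 and Psmb7 in newly built cores and change the peptides that are cut for display on class I molecules. In heart muscle the proteasome turns over sarcomere and signalling proteins.

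The promoters of the 3 immunoproteasome genes and of Psmb5 are shown because all 3 immunoproteasome genes rose at 72 h and Psmb5, whose place Psmb8 takes, did not pass the test. The windows run from 250 bases before to 50 bases after the start of each gene, as RefSeq gives it on GRCr8, and 30 of the 34 genes had one in the table used here; Psma7, Psmd6, Psmd12 and Psmd14 did not. They lie at chr20:4656982-4657281 (minus strand) for Psmb8, chr20:4668750-4669049 (plus strand) for Psmb9, chr19:50743243-50743542 (minus strand) for Psmb10 and chr15:32047330-32047629 (minus strand) for Psmb5. Each is written on the strand of its gene, and capitals mark matches, on either strand, to the interferon-stimulated response element (GAAA, 2 bases of any kind, GAAA), the gamma-activated site TTCNNNGAA or the antioxidant response element core TGACNNNGC.
Psmb8: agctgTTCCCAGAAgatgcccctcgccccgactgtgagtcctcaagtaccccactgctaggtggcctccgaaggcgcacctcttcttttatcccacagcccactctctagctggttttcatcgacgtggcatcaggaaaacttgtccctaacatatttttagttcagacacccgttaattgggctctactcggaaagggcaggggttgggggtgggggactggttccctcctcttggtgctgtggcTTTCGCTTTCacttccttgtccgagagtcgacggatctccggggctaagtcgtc
Psmb9: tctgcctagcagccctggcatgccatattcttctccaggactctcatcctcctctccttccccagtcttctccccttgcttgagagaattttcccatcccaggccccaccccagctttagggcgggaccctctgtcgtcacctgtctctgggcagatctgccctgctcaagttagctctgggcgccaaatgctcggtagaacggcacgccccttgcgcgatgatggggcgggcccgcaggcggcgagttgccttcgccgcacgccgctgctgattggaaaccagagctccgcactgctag
Psmb10: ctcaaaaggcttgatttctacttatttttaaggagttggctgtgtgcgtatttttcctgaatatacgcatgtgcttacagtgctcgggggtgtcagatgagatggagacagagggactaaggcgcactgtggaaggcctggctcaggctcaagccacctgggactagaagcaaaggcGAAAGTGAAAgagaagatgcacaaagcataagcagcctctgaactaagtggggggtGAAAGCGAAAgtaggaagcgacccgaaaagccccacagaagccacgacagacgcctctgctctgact
Psmb5: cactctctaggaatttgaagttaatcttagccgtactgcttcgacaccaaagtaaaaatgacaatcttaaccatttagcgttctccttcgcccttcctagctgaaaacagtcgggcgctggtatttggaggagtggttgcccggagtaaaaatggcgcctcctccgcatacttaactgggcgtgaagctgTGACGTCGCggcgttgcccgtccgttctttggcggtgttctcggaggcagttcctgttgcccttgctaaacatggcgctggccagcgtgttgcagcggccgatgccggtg

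The interferon-stimulated letters stood in the windows of Psmb8, at position -4 from the start, and of Psmb10, at -73 and -17, which is 2 of 3 immunoproteasome genes. They stood in 3 of 27 constitutive genes (11.1%) and in 3.92% of the 33469 promoters in the table. The gamma-activated letters stood in Psmb8 at -245, in 3 of 27 constitutive genes and in 8.87% of all promoters. The antioxidant core stood in Psmb5 at -60 and in 6 of 27 constitutive genes (22.2%), against 0 of 3 immunoproteasome genes and 12.1% of all promoters. None of these letters was found in the Psmb9 window, whose first 44 bases overlap the window of Tap1 on the opposite strand. The Tap1 window held the interferon-stimulated letters at -121 from the Tap1 start, outside those 44 bases. A match describes letters only.

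**Figure D1:**
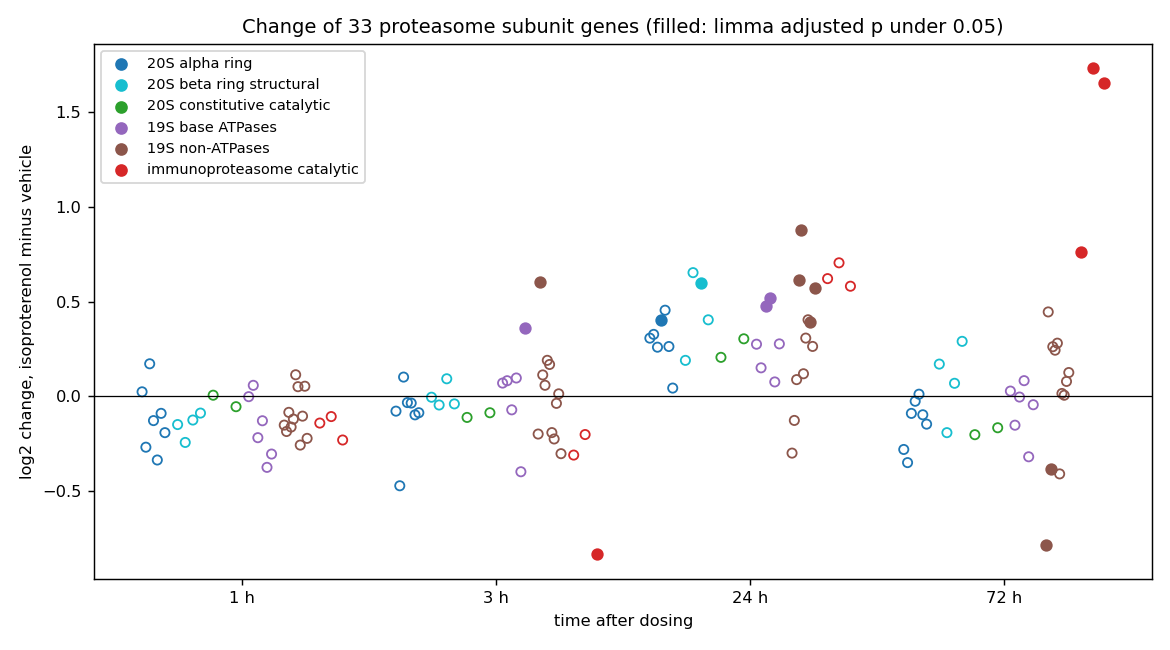
Change in log2(intensity + 16), isoproterenol minus vehicle, for each of the 33 genes (points) at 1, 3, 24 and 72 h, coloured by role; filled points passed the limma test at an adjusted p of 0.05. Of the 30 constitutive genes, 7 are positive at 1 h, 12 at 3 h and 28 at 24 h. At 72 h Psmb8, Psmb9 and Psmb10 stand above the rest.

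At 1 h after dosing no subunit gene passed the test. The count was 0 of 33 in the limma fit, where 2.65% of all probe sets tested passed (1.83% as higher and 0.815% as lower), and 3 of the 33 genes had an unadjusted p under 0.05, against 1661 of all 12451 genes tested. Changes are given as log2(intensity + 16) values, isoproterenol minus vehicle, ± the standard error of the fit. The constitutive genes ran from -0.37 to 0.17 with a median of -0.13, against -0.03 over all 12451 genes tested. Of the 30, 7 were positive, as were 5666 of all 12451 genes. Among the catalytic subunits the changes were 0.01 ± 0.11 for Psmb5, -0.05 ± 0.12 for Psmb7, -0.11 ± 0.35 for Psmb8, -0.23 ± 0.22 for Psmb9 and -0.14 ± 0.22 for Psmb10.

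At 3 h, 3 of 33 genes passed the test, where 11.4% of all probe sets did (6.11% as higher and 5.28% as lower): Psmb9 fell, and Psmc6 and Psmd11, an ATPase and a lid scaffold of the 19S cap, rose. The count was 0 without vehicle replicate 1, without isoproterenol replicate 2 and without normalization, and 1 without vehicle replicate 2 or isoproterenol replicate 1. The isoproterenol and vehicle arrays did not overlap in 4 of 33 genes, 1 above and 3 below, against 17.5% of all probe sets. Psmb9 measured 7.37, 7.03, 7.87 and 7.75 in isoproterenol hearts, against 8.51, 8.29 and 8.22 in vehicle hearts. The groups did not overlap, and the change was -0.83 ± 0.23 (limma adjusted p = 0.0157). The Psmb9 change was negative under each of the 21 alternatives run, and the call was lost without vehicle replicate 1 (-0.75, adjusted p = 0.0785), without isoproterenol replicate 2 (-0.67, adjusted p = 0.0698), with arrays centred on their medians (-0.79, adjusted p = 0.0651) and without normalization (adjusted p = 0.248). Psmb10 measured 6.98 to 7.25 in isoproterenol hearts, against 7.36 to 7.48 in vehicle hearts, a change of -0.31 ± 0.23 that did not pass (adjusted p = 0.443). Psmb8 changed by -0.20 ± 0.37, with values spread from 5.88 to 7.31 in isoproterenol hearts and from 5.67 to 7.20 in vehicle hearts.

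Psmc6 measured 9.65, 9.45, 9.60 and 9.47 in isoproterenol hearts of 3 h, against 9.26, 9.04 and 9.24 in vehicle hearts of 3 h. Its change of 0.36 ± 0.12 (adjusted p = 0.0486) lost the call when any 1 of the 7 arrays was left out, with changes between 0.29 and 0.40. Psmd11 measured 10.77, 10.76, 10.51 and 10.38 in isoproterenol hearts, against 10.11, 9.41 and 10.46 in vehicle hearts. The vehicle array at 9.41 stands low and the vehicle array at 10.46 lies within the isoproterenol range. The Psmd11 change of 0.61 ± 0.19 (adjusted p = 0.0362) was 0.31 without vehicle replicate 2, 0.66 without vehicle replicate 1, and 0.55 without isoproterenol replicate 1 or 2, each with the call lost. Its next brightest probe set read 0.04 ± 0.17, so the Psmd11 probe sets disagree. The constitutive genes as a group had a median of -0.04 (all genes -0.06), and that median was 0.18 with arrays centred on their medians and 0.17 with trimmed mean scaling. Psmb5 changed by -0.11 ± 0.12 and Psmb7 by -0.09 ± 0.13, and both turned positive under those scalings, Psmb5 at 0.11 and 0.10 and Psmb7 at 0.15 and 0.14. Of 7 neutrophil markers 4 were measured, and 2 of these rose at 3 h, where 13.3% of all genes passed in either direction. They summed to 287 to 435 in isoproterenol hearts, against 57.2 to 118 in vehicle hearts. Of the 4, Mmp8 did not exceed an intensity of 28.5 on any array, and Csf3r did not exceed 63.7. The sums were already apart at 1 h, when no subunit gene passed, at 98.4 to 213 in isoproterenol hearts, against 52.5 to 82.8 in vehicle hearts. At 1 h, 1 of the 4 rose, where 3.41% of all genes passed. The part of these markers in the result was not tested.

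At 24 h subunits of both the core and the cap rose. Of 33 genes 8 rose and none fell, all 8 of them constitutive, where 13.0% of all probe sets passed in either direction and 7.33% passed as higher and 5.70% as lower. The isoproterenol arrays lay above every vehicle array in 7 of 33 genes and below in 0, against groups without overlap in either direction in 21.8% of all probe sets. Over all genes, each read by its brightest probe set, 17.2% passed in either direction at 24 h, 13.3% at 3 h and 22.1% at 72 h. The share of constitutive genes that rose was 26.7%, against 13.6% of the 4280 probe sets whose mean level lay in the range of these genes. Their median change was 0.31, against -0.01 over all genes, and 28 of 30 were positive, with 17 of 30 at an unadjusted p under 0.05, as were 3864 of all 12451 genes. The median stayed positive under each of the other scalings run, between 0.24 and 0.87, the upper end being without normalization, where the median of all probe sets itself shifted by 0.47.

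Psmd14, the deubiquitinase that strips ubiquitin from substrates at the cap, had the largest change. It measured 10.13, 10.37, 9.80 and 10.30 in isoproterenol hearts of 24 h, against 9.43, 9.30 and 9.10 in vehicle hearts of 24 h, with no overlap. The change was 0.88 ± 0.14, or 1.84-fold (adjusted p = 8e-05), and it passed under all 21 alternatives run. A further Psmd14 probe set also rose, by 0.69 ± 0.14 (adjusted p = 0.00147), and the third read 0.28 ± 0.20 (adjusted p = 0.409).

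Psmd13, a lid subunit, measured 9.02, 9.16, 8.73 and 9.10 in isoproterenol hearts, against 8.52, 8.02 and 8.63 in vehicle hearts, a rise of 0.62 ± 0.16 (adjusted p = 0.00848). Psmb3, a structural beta subunit, measured 10.43, 10.66, 10.04 and 10.22 in isoproterenol hearts, against 9.84, 9.84 and 9.52 in vehicle hearts, a rise of 0.60 ± 0.17 (adjusted p = 0.0191). Neither gene's groups overlapped. Psmc4, a cap ATPase, measured 10.06, 10.19, 9.57 and 9.89 in isoproterenol hearts, against 9.62, 9.09 and 9.51 in vehicle hearts, a rise of 0.52 ± 0.14 (adjusted p = 0.0102). A much dimmer Psmc4 probe set read 0.00 ± 0.31. The lid subunits Psmd8 (0.58 ± 0.17) and Psmd6 (0.39 ± 0.12), the ATPase Psmc3 (0.48 ± 0.16) and the alpha subunit Psma4 (0.40 ± 0.13) also rose, at adjusted p between 0.0194 and 0.0456. In these 4 genes and in Psmc4 the lowest isoproterenol array lay below the highest vehicle array.

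By role, 1 of 7 alpha ring genes, 1 of 4 structural beta genes, 2 of 6 ATPases and 4 of 11 other cap genes rose at 24 h, and neither measured constitutive catalytic gene passed. Psmb5 measured 11.01, 11.49, 11.05 and 10.90 in isoproterenol hearts, against 10.85, 10.87 and 11.00 in vehicle hearts (change 0.21 ± 0.12). Psmb7 measured 10.85, 11.17, 10.84 and 10.89 in isoproterenol hearts, against 10.91, 10.42 and 10.57 in vehicle hearts (change 0.30 ± 0.13), and Psmb7 passed without vehicle replicate 1 (0.44, adjusted p = 0.0351). The 2 negative genes were Psmd1, a large scaffold of the cap, at -0.30 ± 0.17, and Psmd11 at -0.13 ± 0.19. For Psmd11 the next brightest probe set again differed: it rose by 0.60 ± 0.17 (adjusted p = 0.0153).

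The number of calls at 24 h rested on single arrays. It was 2 without vehicle replicate 2, 3 without vehicle replicate 3, and 3, 4 and 5 without isoproterenol replicates 2, 1 and 4. It was 15 without isoproterenol replicate 3, and those 15 held all 8. With only the 24 h arrays in the fit, 1 gene, Psmd14, passed, and with arrays centred on their medians 3 did, Psmd14, Psmd13 and Psmb10. Over the 7 fits that left out 1 array, Psmd13 lost the call without vehicle replicate 2 (0.43), Psmc4 without vehicle replicate 2 (0.36) and isoproterenol replicate 2 (0.44), and Psmb3 without vehicle replicate 3 (0.50) and isoproterenol replicates 1 (0.57) and 2 (0.49). Psma4, Psmd6 and Psmd8 each lost it in 4 of the 7 fits, with lowest changes of 0.29, 0.29 and 0.44, and Psmc3 in 5 of 7, with a lowest change of 0.34. All of these changes stayed positive.

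Other measures also differed between the groups at 24 h. The 24 h isoproterenol array with the lowest mean over the 30 constitutive genes, replicate 3 at 9.85, had the lowest sum over 14 monocyte and macrophage markers, 7940. The array with the highest mean, replicate 2 at 10.27, had the highest sum, 22600. Between them the order was reversed: replicate 1, at 10.131, had a sum of 15000, and replicate 4, at 10.115, had 16700. At 72 h the isoproterenol array with the lowest sum, replicate 1 at 3480, had the highest mean of the isoproterenol arrays, 9.847. The sums in vehicle hearts of 24 h lay between 1850 and 2950, and 12 of the 14 markers rose, where 17.2% of all genes passed in either direction. The difference between the 3-prime and 5-prime actin probe sets, a sign of RNA integrity, was 0.872 ± 0.372 in isoproterenol hearts (SD, n = 4) and 1.64 ± 0.245 in vehicle hearts (SD, n = 3), on the log2 scale. For the GAPDH probe sets the groups lay closer, at 0.298 ± 0.025 in isoproterenol hearts (SD, n = 4) and 0.381 ± 0.076 in vehicle hearts (SD, n = 3). The cardiomyocyte sum lay between 77000 and 91100 in isoproterenol hearts, against 94500 to 97800 in vehicle hearts, and 7 measured endothelial markers summed to 3270 to 4110 in isoproterenol hearts, against 4560 to 5170 in vehicle hearts. The part of these measures in the result was not tested.

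**Figure D2:**
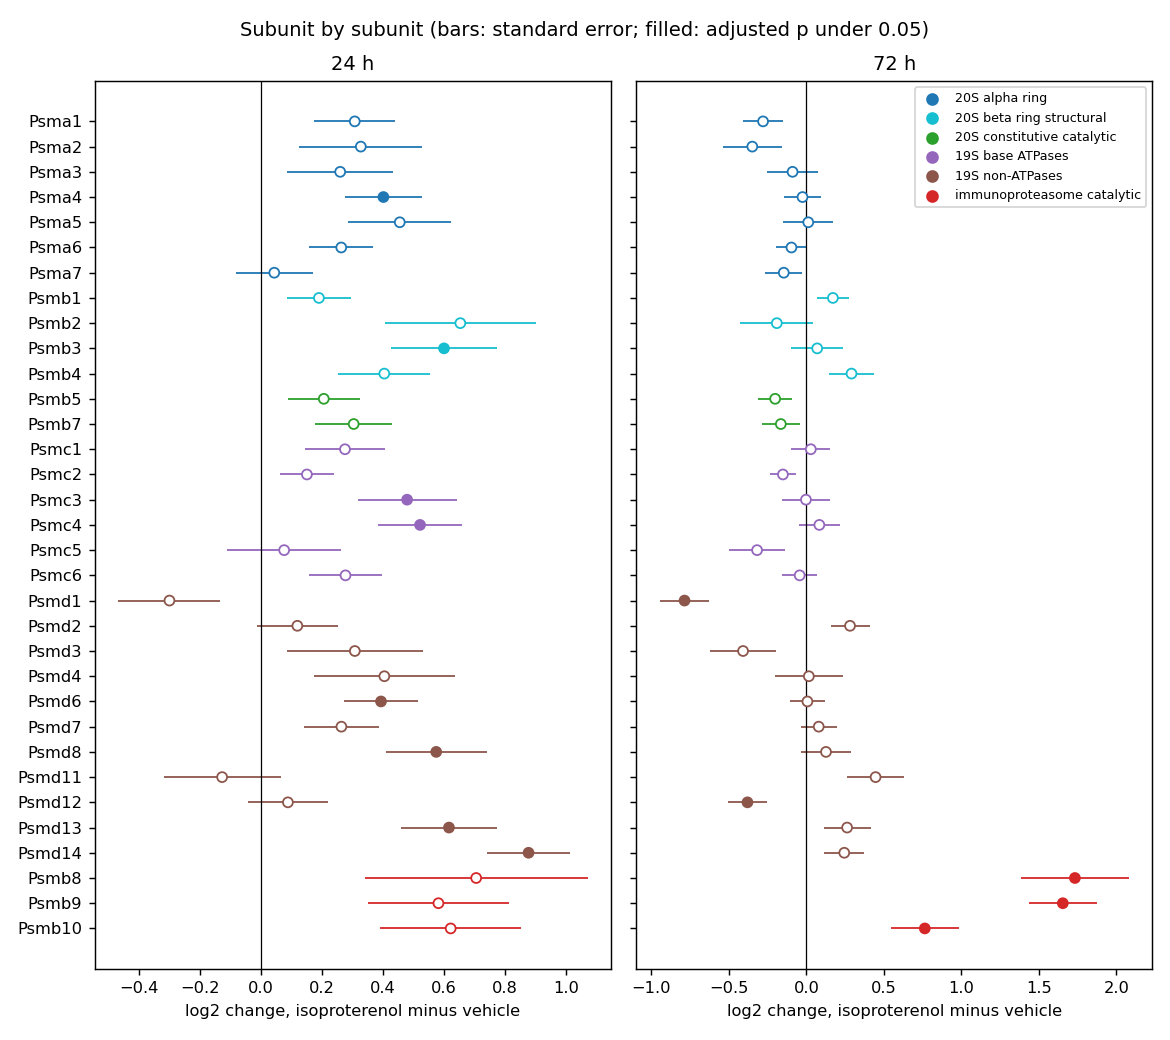
Change of each of the 33 genes at 24 h (left) and 72 h (right), isoproterenol minus vehicle in log2(intensity + 16), with the standard error as a bar and filled points for an adjusted p under 0.05. At 24 h most genes lie right of 0, with Psmd14 at 0.88, and at 72 h the constitutive genes scatter around 0 while Psmb8, Psmb9 and Psmb10 lie at 1.73, 1.66 and 0.76.

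At 72 h all 3 immunoproteasome genes rose and, of the 30 constitutive genes, none rose and 2 fell. That is 5 of 33 genes, where 17.9% of all probe sets passed in either direction and 9.37% as higher and 8.56% as lower. The isoproterenol arrays lay above every vehicle array in 4 of 33 genes and below in 2, against groups without overlap in either direction in 16.8% of all probe sets. The median change was 1.65 over the immunoproteasome genes and -0.01 over the constitutive genes, against 0.01 over all genes. With arrays centred on their medians or without normalization, the 3 immunoproteasome genes passed as higher and no gene passed as lower. The constitutive median was 0.15 and 0.51 under those settings, the second beside a shift of 0.36 in the median of all probe sets.

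Psmb8, which takes the place of Psmb5, measured 7.76, 8.73, 8.28, 7.55 and 8.52 in isoproterenol hearts of 72 h, against 6.69, 6.43 and 6.18 in vehicle hearts of 72 h. The groups averaged 8.17 ± 0.50 (SD, n = 5) in isoproterenol hearts and 6.43 ± 0.25 (SD, n = 3) in vehicle hearts, without overlap. The change was 1.73 ± 0.35, or 3.32-fold (adjusted p = 0.000783). Psmb9, which takes the place of Psmb6, measured 8.99, 9.55, 9.44, 8.78 and 9.54 in isoproterenol hearts, against 7.65, 7.04 and 8.13 in vehicle hearts, again without overlap. Its change was 1.66 ± 0.22, or 3.15-fold (adjusted p = 8.39e-06). Both genes passed under all 22 alternatives run, Psmb8 between 1.32 and 2.16 and Psmb9 between 1.37 and 2.15.

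Psmb10, which takes the place of Psmb7, measured 7.52, 8.64, 7.76, 7.70 and 7.82 in isoproterenol hearts of 72 h, against 7.30, 6.58 and 7.50 in vehicle hearts of 72 h. One isoproterenol array stood high, 1 vehicle array stood low, and the lowest isoproterenol array was just above the highest vehicle array. The change was 0.76 ± 0.22, or 1.70-fold (adjusted p = 0.0144). It was 0.49 without vehicle replicate 2 (adjusted p = 0.149), 0.58 without isoproterenol replicate 2 (adjusted p = 0.0546), and with only the 72 h arrays in the fit it did not pass (adjusted p = 0.0891).

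**Figure D3:**
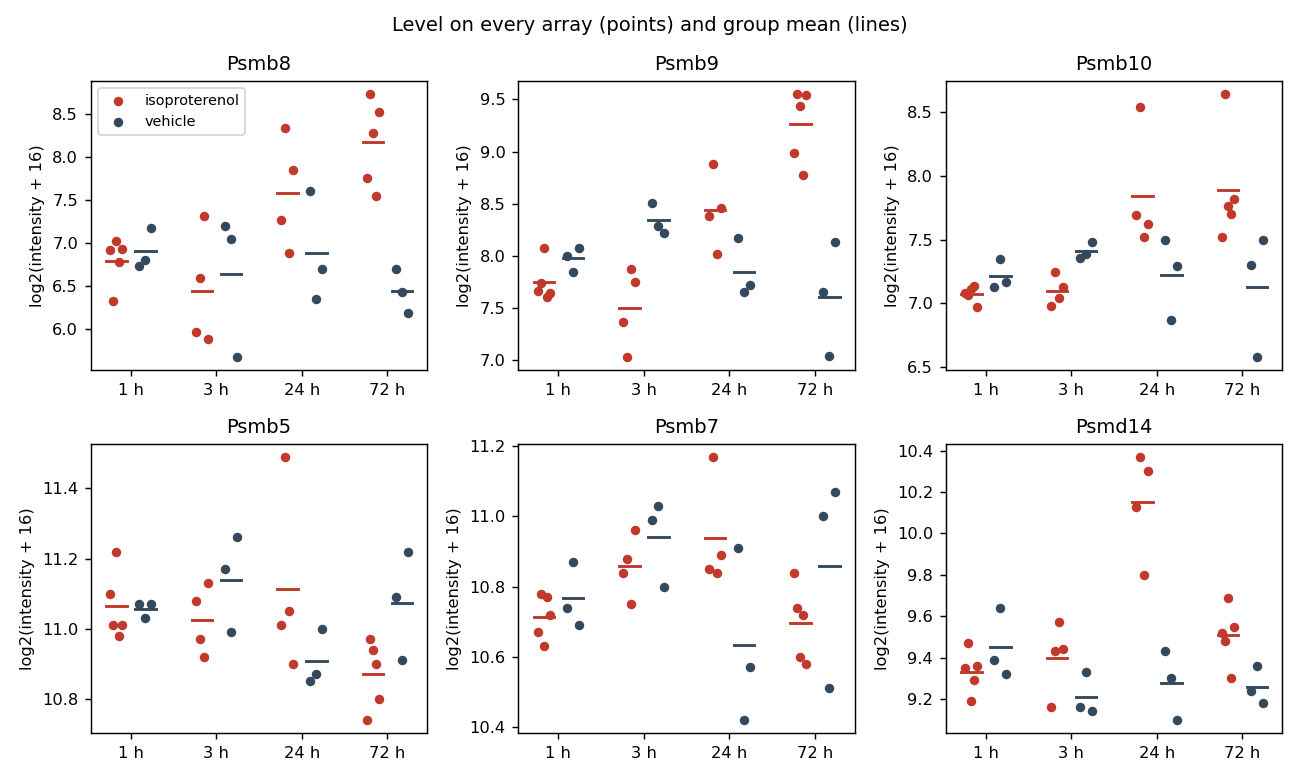
Level on each array, in log2(intensity + 16), of Psmb8, Psmb9, Psmb10, Psmb5, Psmb7 and Psmd14 at 1, 3, 24 and 72 h; isoproterenol (red) stands left of vehicle (grey) and lines are group means. Psmb8 and Psmb9 are separated at 72 h, Psmb9 is lower in isoproterenol hearts at 3 h, and Psmd14 is separated at 24 h.

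Neither measured constitutive catalytic gene passed at 72 h. Psmb5 measured 10.74, 10.97, 10.94, 10.90 and 10.80 in isoproterenol hearts of 72 h, against 11.09, 10.91 and 11.22 in vehicle hearts of 72 h, a change of -0.20 ± 0.11 (adjusted p = 0.23). Psmb7 measured 10.84, 10.74, 10.60, 10.72 and 10.58 in isoproterenol hearts, against 11.00, 10.51 and 11.07 in vehicle hearts, a change of -0.17 ± 0.12 (adjusted p = 0.391). The groups overlapped in each gene, Psmb7 passed as lower with array weights (-0.30, adjusted p = 0.0235), and without normalization the changes were 0.22 for Psmb5 and 0.28 for Psmb7. The 2 genes that fell belong to the 19S cap. Psmd1 measured 8.81, 8.28, 8.51, 8.70 and 8.22 in isoproterenol hearts, against 9.47, 8.84 and 9.56 in vehicle hearts, just without overlap, and fell by 0.79 ± 0.16 (adjusted p = 0.000815). The Psmd1 change was -0.56 with arrays centred on their medians (adjusted p = 0.106) and -0.20 without normalization (adjusted p = 0.786). Psmd12, a lid subunit, measured 10.17, 9.89, 9.75, 9.69 and 9.72 in isoproterenol hearts, against 10.39, 10.21 and 10.07 in vehicle hearts, and fell by 0.38 ± 0.13 (adjusted p = 0.033). That call was lost without vehicle replicate 1 (-0.30) or 2 (-0.38) and without isoproterenol replicate 3 (-0.36), 4 (-0.34) or 5 (-0.35), as well as with arrays centred on their medians (-0.23) and with only the 72 h arrays, and without normalization the change was 0.13. A Psmc6 probe set other than its brightest also passed, at -0.53 ± 0.19 (adjusted p = 0.0449), while the brightest read -0.04 ± 0.12.

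At 24 h the immunoproteasome genes had positive changes that did not pass: 0.71 ± 0.37 for Psmb8 (adjusted p = 0.227), 0.58 ± 0.23 for Psmb9 (adjusted p = 0.0976) and 0.62 ± 0.23 for Psmb10 (adjusted p = 0.0727). Psmb8 measured 7.26, 8.34, 6.88 and 7.85 in isoproterenol hearts, against 7.60, 6.35 and 6.69 in vehicle hearts. Psmb9 measured 8.38, 8.88, 8.02 and 8.46 in isoproterenol hearts, against 8.17, 7.65 and 7.72 in vehicle hearts. In both genes the groups overlapped through 1 high vehicle array, replicate 1. Psmb10 measured 7.69, 8.54, 7.52 and 7.62 in isoproterenol hearts, against 7.50, 6.87 and 7.29 in vehicle hearts. Its groups did not overlap, and 1 isoproterenol array stood well above the others. Without isoproterenol replicate 3, Psmb9 (0.72) and Psmb10 (0.73) passed at 24 h. Without normalization all 3 passed, at 1.34, 1.21 and 1.27 for Psmb8, Psmb9 and Psmb10, Psmb10 also passed with median centring (0.77) and trimmed mean scaling (0.67), and Psmb9 with array weights.

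The change of the effect between successive times was tested in the same fit. From 1 h to 3 h, 0 of 33 genes passed in the limma fit (0.580% of all probe sets did). An unadjusted p under 0.05 was found for 2 of 33, against 1619 of all 12451 genes tested. Without isoproterenol replicate 5 of 1 h, 1 gene passed. From 3 h to 24 h, 3 of 33 passed (6.79% of all probe sets, 3.59% as higher and 3.20% as lower): the effect was higher at 24 h for Psmb9, by 1.42 ± 0.33 (adjusted p = 0.00789), for Psmd8, by 0.88 ± 0.24 (adjusted p = 0.0214), and for Psmd14, by 0.69 ± 0.19 (adjusted p = 0.0271). Psmb9 passed under all 28 alternatives run. Psmd14 lost the call without vehicle replicate 2 (0.63) or isoproterenol replicate 1 (0.60) of 3 h and without vehicle replicate 3 (0.60) or isoproterenol replicate 2 (0.62) or 4 (0.64) of 24 h. Psmd8 lost it without vehicle replicate 1 (0.82) or 2 (0.85) of 3 h and without vehicle replicate 2 (0.74) or isoproterenol replicate 2 (0.79) of 24 h. Both lost it under each of the other scalings run, where Psmd14 was at 0.51 with median centring and 0.38 with trimmed mean scaling. The count was 1 without isoproterenol replicate 2 of 24 h, 5 without vehicle replicate 3 of 3 h, 6 without vehicle replicate 1 of 24 h and 9 without isoproterenol replicate 3 of 24 h.

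From 24 h to 72 h, 0 of 33 genes passed in the limma fit (2.12% of all probe sets). An unadjusted p under 0.05 was found for 18 of 33, against 2004 of all 12451 genes tested. The constitutive median was -0.40, with 2 of 30 genes positive, against a median of 0.01 over all genes. The immunoproteasome genes were at 1.03 ± 0.51 for Psmb8, 1.07 ± 0.32 for Psmb9 (adjusted p = 0.0738) and 0.14 ± 0.32 for Psmb10. So a different response at 72 h and at 24 h was not shown for any 1 subunit gene by its brightest probe set. The brightest Psmd14 probe set read -0.63 ± 0.19 (adjusted p = 0.0724). The next brightest Psmd14 probe set did pass in the same limma fit, at -0.74 ± 0.20 (adjusted p = 0.0415). Leaving out 1 array gave 4 calls without vehicle replicate 2 of 72 h, 2 without isoproterenol replicate 1 of 72 h, and 1 without vehicle replicate 1, isoproterenol replicate 2 or isoproterenol replicate 3 of 24 h or without vehicle replicate 3 or isoproterenol replicate 4 of 72 h. Among the 4 vehicle groups, 0 of 33 genes passed the limma F test (0.0988% of all probe sets). Of the 33, 3 were at an unadjusted p under 0.05, against 1324 of all 12451 genes tested. Without vehicle replicate 3 of 3 h or vehicle replicate 2 of 72 h, 1 passed.

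Psmb8 and Psmb10 were also set against the constitutive genes whose places they take, Psmb5 and Psmb7, as the log2 difference within an array. The level of such a difference depends on the probe sets, so only its change between groups is read. At 72 h the difference Psmb8 minus Psmb5 averaged -2.70 ± 0.47 in isoproterenol hearts (SD, n = 5) and -4.64 ± 0.35 in vehicle hearts (SD, n = 3), a change of 1.93. It lay between -3.35 and -2.24 in isoproterenol hearts and between -5.04 and -4.40 in vehicle hearts. Psmb10 minus Psmb7 averaged -2.81 ± 0.45 in isoproterenol hearts (SD, n = 5) and -3.74 ± 0.18 in vehicle hearts (SD, n = 3), a change of 0.93, with ranges of -3.31 to -2.10 and -3.93 to -3.57.

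Neither pair overlapped between the groups at 72 h. The two-sided exact permutation p was 0.0357 for each, the smallest that 5 against 3 arrays can give, and 0.143 after adjustment over the 8 comparisons. At 24 h the changes were 0.50 for Psmb8 minus Psmb5 (exact permutation p = 0.286) and 0.32 for Psmb10 minus Psmb7 (exact permutation p = 0.114), where 4 against 3 arrays cannot go below 0.0571. At 1 h they were -0.11 and -0.09, and at 3 h -0.09 and -0.22, in the same order of pairs. Psmb9 could not be set against Psmb6.

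**Figure D4:**
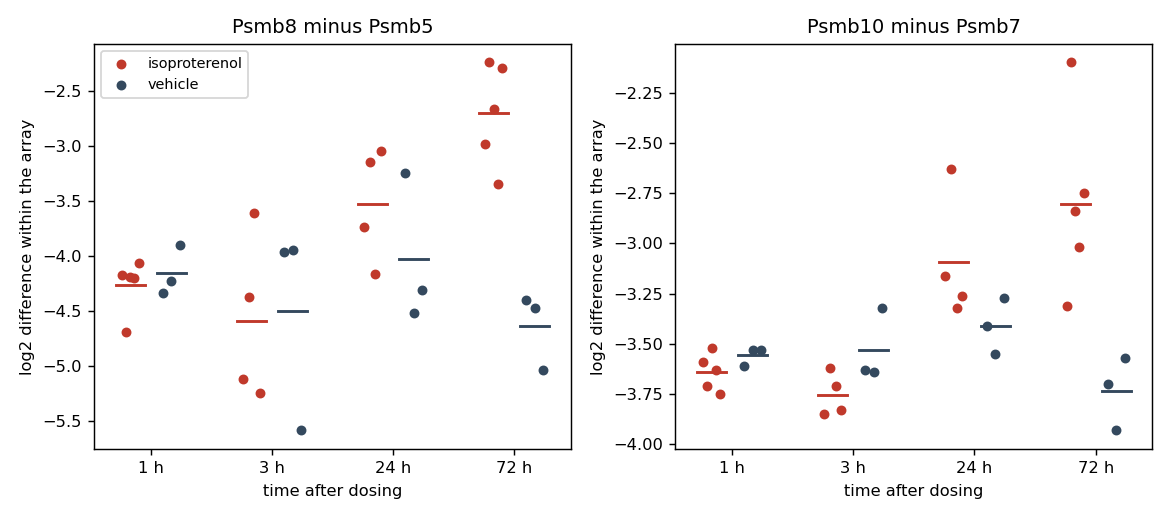
Log2 difference within each array (points) and group mean (lines) for Psmb8 minus Psmb5 (left) and Psmb10 minus Psmb7 (right) at 1, 3, 24 and 72 h, isoproterenol (red) left of vehicle (grey). The groups mix at 1 and 3 h and separate at 72 h, by 1.93 and 0.93 on average.

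At 72 h genes of antigen display and interferon signalling also rose. In the class I list, 5 of 9 genes rose and none fell, with a median change of 0.59, where 22.1% of all genes passed in either direction. Among them were Tap1, which carries peptides into the endoplasmic reticulum (1.34 ± 0.30, adjusted p = 0.00232), Erap1, which trims them there (1.14 ± 0.22, adjusted p = 0.000422), and Nlrc5, the transactivator of class I genes (0.88 ± 0.25, adjusted p = 0.0152). Tap1 measured 7.55, 8.24, 7.36, 7.55 and 7.59 in isoproterenol hearts, against 5.94, 6.60 and 6.40 in vehicle hearts. At 24 h, 2 of the 9 rose (22.2%), near the 17.2% of all genes that passed in either direction. They were the chaperones Calr (0.89 ± 0.17) and Pdia3 (0.79 ± 0.19), and Tap1 was at 0.29 ± 0.32 and did not pass. None of the 9 passed in the limma fit at 1 h or 3 h, with 0 and 1 at an unadjusted p under 0.05.

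Of 15 measured interferon genes, 10 rose and none fell at 72 h, with a median change of 1.40, where 22.1% of all genes passed in either direction. The largest changes were in the antiviral effectors Mx1 (3.18 ± 0.56) and Isg15 (2.93 ± 0.49) and the chemokine Cxcl10 (2.91 ± 0.53). Irf1, the transcription factor that acts on immunoproteasome promoters, measured 8.59, 9.02, 8.35, 7.89 and 8.49 in isoproterenol hearts of 72 h, against 7.21, 7.42 and 7.77 in vehicle hearts of 72 h, and rose by 1.00 ± 0.20 (adjusted p = 0.00079). At 24 h Irf1 was at -0.13 ± 0.21, and 1 of the 15 genes rose, the myeloid factor Irf8 (1.13 ± 0.32, adjusted p = 0.0176). At 3 h 1 fell, Irf2 (-0.66 ± 0.21, adjusted p = 0.0398), and Irf1 was at -0.33 ± 0.21. Over all genes, 17.2% passed at 24 h and 13.3% at 3 h, in either direction. At 1 h none passed in the limma fit, with 1 at an unadjusted p under 0.05. The transcript of interferon gamma itself, Ifng, did not exceed an intensity of 23 on any array and was not tested.

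Markers of other cells also moved at 72 h, where 22.1% of all genes passed in either direction. Of 14 monocyte and macrophage markers 13 rose, and their sum was 3480 in isoproterenol replicate 1 and 14300 to 17900 in the other 4 isoproterenol arrays, against 1750 to 2020 in vehicle arrays. The interferon genes summed to 4070 in isoproterenol replicate 1 and 6700 to 19200 in the other 4 isoproterenol arrays, against 3230 to 3850 in vehicle arrays. Psmb9 and Psmb8 in isoproterenol replicate 1, at 8.99 and 7.76, were above every vehicle array of 72 h and above isoproterenol replicate 4, at 8.78 and 7.55. Psmb10 in isoproterenol replicate 1, at 7.52, was the lowest of the isoproterenol arrays and only just above the highest vehicle array. Of 8 fibroblast markers 6 rose, with sums of 26000 to 51900 in isoproterenol hearts, against 16200 to 23300 in vehicle hearts. Of 8 measured lymphocyte and natural killer markers 1 rose, with sums of 201 to 285 in isoproterenol hearts, against 161 to 221 in vehicle hearts, and the B cell marker Cd79b did not exceed an intensity of 5 on any array. The part of these cell types in the result was not tested.

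**Figure D5:**
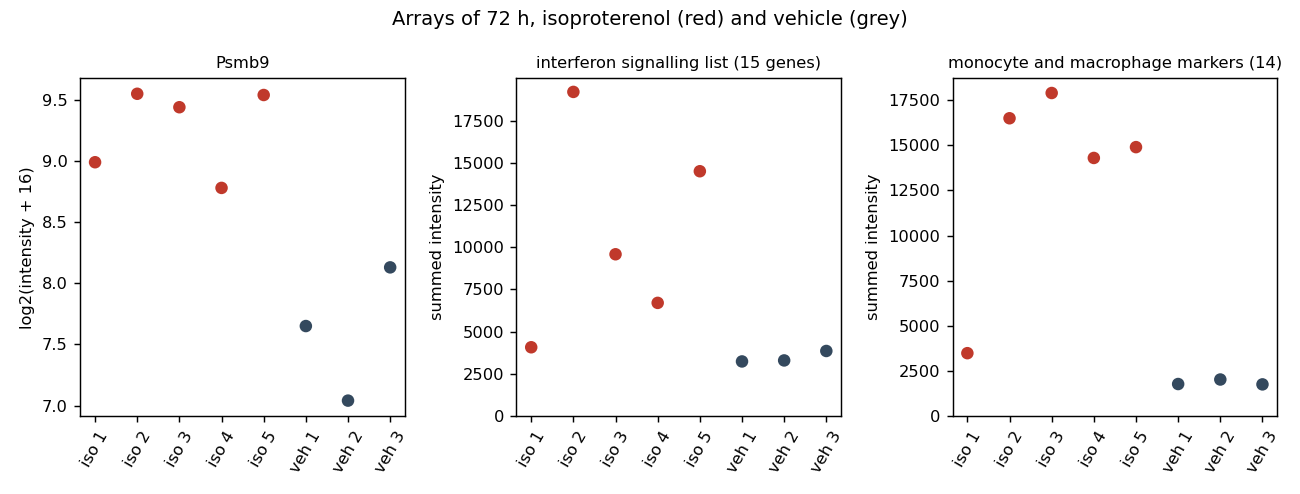
The 72 h arrays, isoproterenol (red) left of vehicle (grey): Psmb9 in log2(intensity + 16), and the summed normalized intensity of the 15 measured interferon genes and of the 14 monocyte and macrophage markers. Isoproterenol replicate 1 has the lowest of the isoproterenol values in both sums (4070 and 3480), and every isoproterenol array lies above every vehicle array in all 3 measures.

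Other regulators can cap the core in place of 19S. Of 4 measured activator and inhibitor genes none rose and 1 fell at 72 h, where 22.1% of all genes passed in either direction. Psme1 fell by 0.28 ± 0.10 (adjusted p = 0.0484), and its partner Psme2 in the same interferon-inducible ring was at 0.42 ± 0.16 (adjusted p = 0.0651). Psme2 measured 9.27, 9.61, 9.54, 9.44 and 9.64 in isoproterenol hearts, against 9.29, 8.69 and 9.25 in vehicle hearts. At 24 h Psme1 was at -0.22 ± 0.10 and Psme2 at 0.43 ± 0.17, neither past the threshold.

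Assembly chaperones help the particle form. At 24 h the changes of all 8 measured were positive, with a median of 0.23, and 2 rose, Psmd5 (0.59 ± 0.18, adjusted p = 0.0243) and Psmd9 (0.55 ± 0.18, adjusted p = 0.0419), which help build the base of the cap. That is 2 of 8, where 17.2% of all genes passed at 24 h. At 72 h 1 of the 8 fell, where 22.1% of all genes passed, the alpha ring chaperone Psmg2 (-0.56 ± 0.13, adjusted p = 0.00336). Pomp, which matures the core, was at 0.18 ± 0.12 at 24 h and -0.22 ± 0.11 at 72 h, neither past the threshold. Among 9 other cap-associated genes, the ubiquitin shuttle factor Rad23b rose (0.40 ± 0.11) and the shuttle factor Ubqln2 fell (-0.58 ± 0.19) at 24 h, also near the share of all genes, and none passed at the other times in the limma fit, with 1 at an unadjusted p under 0.05 at 3 h and 0 at 1 h and 72 h.

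Nfe2l1 encodes the transcription factor that raises proteasome genes when the proteasome is impaired, and its transcript was lower at 24 h. It measured 9.08, 8.91, 9.31 and 9.11 in isoproterenol hearts, against 9.59, 9.54 and 9.99 in vehicle hearts, without overlap (-0.60 ± 0.20, adjusted p = 0.0373). Its relative Nfe2l2, which answers oxidative stress, rose at 3 h (0.75 ± 0.13, adjusted p = 9.76e-05) and 72 h (0.53 ± 0.12, adjusted p = 0.0025) and was at 0.22 ± 0.13 at 24 h. Of the 7 genes of this list, Ddi2, the protease that cleaves the Nfe2l1 product, fell at 3 h (-0.56 ± 0.17), and Ufd1, a partner of the Vcp unfoldase, fell at 24 h (-0.46 ± 0.13) and 72 h (-0.52 ± 0.12). So 2 of 7 passed at each of 3, 24 and 72 h, where 13.3%, 17.2% and 22.1% of all genes did, in either direction. At 1 h none of the 7 passed in the limma fit, with 3 at an unadjusted p under 0.05.

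Of 5 measured ubiquitin ligases of muscle, 1 fell at 24 h and 2 at 72 h, and at 3 h 1 rose and 1 fell. Over all genes, 17.2% passed at 24 h, 22.1% at 72 h and 13.3% at 3 h, in either direction. The wasting ligase Trim63 fell at 24 h (-0.57 ± 0.19, adjusted p = 0.044) and 72 h (-0.71 ± 0.18, adjusted p = 0.00676). The wasting ligase Fbxo32 fell at 3 h (-1.11 ± 0.34, adjusted p = 0.0318) and 72 h (-1.24 ± 0.33, adjusted p = 0.00813). Its groups overlapped at both times. At 3 h Fbxo32 lay at 4.96 to 6.23 in isoproterenol hearts, against 5.65 to 7.62 in vehicle hearts. At 72 h it lay at 5.32 to 6.36 in isoproterenol hearts, against 6.32 to 7.66 in vehicle hearts. Mdm2, the ligase of p53, rose at 3 h (0.52 ± 0.14, adjusted p = 0.0136). None passed at 1 h in the limma fit, with 0 at an unadjusted p under 0.05. The other 2, Fbxo30 and Stub1, passed at no time.

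Over the 30 arrays, with group means removed, the constitutive genes varied together to different degrees. The correlation of a gene with the mean of the other constitutive genes ran up to 0.889 for Psmb4, and it was negative for Psmd12 (-0.415), Psmd2 (-0.391), Psmd11 (-0.39), Psmc6 (-0.189) and Psma3 (-0.078). Psmb8, Psmb9 and Psmb10 were at 0.351, 0.429 and 0.48. All genes were read on the same arrays, and no such value was computed for genes outside the proteasome. The values therefore do not set the subunits apart from other genes, and they are a description with no test.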

How the data were processed

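Total RNA of rat heart was labelled as biotinylated cRNA and hybridised to 1-colour Affymetrix RAT230_2 arrays, per the labels' protocols. The deposited intensity values are linear, 1 per probe set and array (31099 probe sets, 30 arrays); how the authors summarised or scaled them was not stated in the labels. No per-sample column was left out. From these values log2(intensity + 16) was computed and quantile normalized. After 57 control probe sets were removed, those with a deposited intensity of at least 23 (the 40th percentile) in at least 3 arrays were tested, which left 24292. limma 3.58.1 in R 4.3.3 fitted 8 group means with an intensity trend (22 residual degrees of freedom), with two-sided tests and Benjamini-Hochberg adjustment over all probe sets at a threshold of 0.05. The script was tested on simulated data. A change on this scale understates that of dim probe sets, and quantile normalization removes changes common to most transcripts.

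Genes were named through the platform annotation, with symbols updated by gene number. The probe set with the highest mean stood for a gene. Paired subunits were compared within arrays by two-sided exact permutation tests over 8 comparisons; a planned Psmb9 and Psmb6 comparison was not made because the Psmb6 probe set is shared. The members, lists and the rule for named genes (the catalytic subunits at every time, up to 8 other members and up to 3 genes of each other list with the largest changes past the threshold, and Psme1, Psme2, Nfe2l1, Pomp, Tap1 and Irf1) were chosen with earlier results of these data known. Vehicle numbers pair with isoproterenol numbers in name only: same-numbered arrays of a time had correlated deviations between -0.074 and 0.125, not all over 0.1. Alternatives varied pseudocount, scaling, filter, variance model, weights, probe set, arrays in the fit, replicate block and single arrays; 1 of them, the filter on normalized values, was chosen after seeing the data.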

Additional observations from a re-analysis of the deposited data

Results flagged for a closer look

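A few subunit values stood far from the other arrays of their isoproterenol group, in log2(intensity + 16). Of 132 sets of values examined, 1 per gene and isoproterenol group, 12 held such an array, and chance gives about 1 in 20. At 1 h they were Psma3 in replicate 1 (8.88, the others 8.43 to 8.49), Psmc4 in replicate 2 (9.17, the others 9.55 to 9.62) and Psmb9 in replicate 3 (8.08, the others 7.61 to 7.74). At 3 h they were Psmd13 in replicate 3 (8.21, the others 8.64 to 8.69) and Psmd6 in replicate 2 (9.83, the others 10.03 to 10.06).

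At 24 h, replicate 2 stood apart for Psmb10 (8.54, the others 7.52 to 7.69), Psmb7 (11.17, the others 10.84 to 10.89) and Psmd12 (9.94, the others 10.19 to 10.22), and replicate 3 for Psmd7 (9.80, the others 10.17 to 10.24). At 72 h, replicate 2 stood apart for Psmb10 (8.64, the others 7.52 to 7.82), Psmb2 (9.11, the others 9.61 to 9.80) and Psmd4 (8.47, the others 8.75 to 8.85).

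The isoproterenol effect differed between 3 h and 24 h for 3 genes in the limma fit, being higher at 24 h by 1.42 for Psmb9 (adjusted p = 0.00789), 0.88 for Psmd8 (adjusted p = 0.0214) and 0.69 for Psmd14 (adjusted p = 0.0271).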

How the results depend on the processing

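The number of arrays limits the precision, and dim probe sets are compressed by the pseudocount. At 24 h, 3 genes passed with median centring, 5 with scaling to a trimmed mean, 5 without the intensity trend, 16 with array weights and 1 with only the 24 h arrays, all of them higher. At 3 h the count was 1 with median centring, without the trend, with second probe sets or with only the 3 h arrays, and 0 without normalization. At 72 h it was 3 with median centring, without normalization or with only the 72 h arrays, and 12 with array weights (4 higher, 8 lower). At 1 h it was 1 with array weights or with only the 1 h arrays. For the effect at 3 h minus 1 h it was 1 with trimmed mean scaling, the stricter filter or array weights. For 24 h minus 3 h it was 1 with median centring or only those arrays and 9 with weights, for 72 h minus 24 h 13 with weights and 1 with second probe sets, and among vehicle times 2 with weights. The cause of these shifts was not tested. Both pseudocounts, robust variance, no filter and the filter on normalized values left every count of calls within 1.5 times of the reported one.

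The replicate block, which rests on shared numbers only, gave 1 call at 3 h, 2 at 24 h, 3 at 72 h and 1 for 24 h minus 3 h. In the blocked limma fit Psmb8 minus Psmb5 was 2.01 (adjusted p = 0.0187) and Psmb10 minus Psmb7 0.98 (adjusted p = 0.0313) at 72 h, and Psmb8 minus Psmb5 was 0.13 at 3 h. These p-values come from limma and were adjusted together with all probe sets tested. They are not on the footing of the exact permutation p, which was adjusted over 8 comparisons. Isoproterenol replicates without a vehicle array of the same number add nothing to the blocked changes.

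Leaving out 1 array gave 0 to 0 calls at 1 h, 0 to 3 at 3 h, 2 to 15 at 24 h, 4 to 7 at 72 h, 0 to 1 for 3 h minus 1 h, 1 to 9 for 24 h minus 3 h, 0 to 4 for 72 h minus 24 h and 0 to 1 among vehicle times. Psmb8 minus Psmb5 ran from -0.21 to 0.02 at 1 h, -0.64 to 0.19 at 3 h (0.09, 0.13 and 0.18 among the positive values), 0.25 to 0.88 at 24 h and 1.74 to 2.10 at 72 h. Psmb10 minus Psmb7 ran from -0.12 to -0.06, -0.28 to -0.12, 0.16 to 0.39 and 0.76 to 1.06 at those times.

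Changes that had not passed and turned sign were Psmb5 at 1 h (-0.02 median-centred, -0.19 without normalization, -0.03 and -0.00 without 1 array), Psmb8 at 1 h (0.03 and 0.01 without 1 array) and at 3 h (0.08 and 0.00, in a range from -0.69), Psmb7 at 1 h (0.06, trimmed mean), and Psmb5 at 3 h (0.29, second probe set; 0.11 and 0.10 under median and trimmed mean scaling) and at 72 h (0.22 without normalization). Psmb7 turned at 3 h (0.15 and 0.14) and 72 h (0.28). Of calls, Psmd12 at 72 h turned to 0.13 without normalization and Psmc4 at 24 h to -0.00 with its second probe set.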
